A study of Mus musculus with 12 samples.

Results

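Lgals1, Lgals3, S100a4, S100a6, S100a10, S100a11, Anxa1, Anxa2, Vim and Crip1 were followed as a group of 10 genes, chosen by gene symbol among 35855 genes with deposited values, in RNA-seq libraries of mouse CD8 T cells. Galectins are lectins that bind beta-galactoside sugars on surface proteins. S100 proteins are small EF-hand proteins, most of which bind calcium, and annexins bind membranes in a calcium-dependent way. Vimentin is an intermediate filament protein and Crip1 is a small LIM domain protein. Some of these proteins act in pairs, as S100A10 does with annexin A2 and S100A11 with annexin A1. In CD8 T cells most of these genes are known for low levels in naive cells and higher levels in effector and memory cells.

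The 12 libraries fell into 4 groups of 3. The WT pre libraries came from spleen CD8 T cells of wild type C57BL/6 mice. The TCF-1 cKO pre libraries (TCF-7 cKO in the labels) came from the same cells of mice on that background with a T cell-specific loss of TCF-1, the factor encoded by Tcf7 (TCF-1 flox/flox x CD4cre), and each pre-transplant group came from 3 mice. For the WT post and TCF-1 cKO post groups, CD3 T cells of such donors were given to lethally irradiated BALB/c recipients. The study's methods add that donor CD8 T cells were also sorted before transplant, and a figure legend says that sorted CD8 T cells were given. T cell-depleted bone marrow of WT mice was given with the donor T cells in both groups. Donor CD8 T cells carrying H2Kb were sorted back from recipient spleen on day 7. The marrow was of the same MHC haplotype, so H2Kb alone does not separate its cells from the donor T cells. CD4cre also acts in CD4 T cells, libraries of mice carrying CD4cre alone were not analysed here, and no source used here says whether the post-transplant libraries came from separate recipients, so p-values there measure only the spread between libraries.

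The libraries held 4520270 to 32657005 estimated counts, with 4520270 to 9577076 in TCF-1 cKO pre. Normalized CPM below are estimated counts relative to library size, scaled with TMM factors over all 12 libraries, and the values of 3 libraries are given in replicate order. Tcf7 was at 131, 84.3 and 189 normalized CPM in WT pre, 30.8, 40.8 and 67.8 in TCF-1 cKO pre, 27.3, 23.99 and 9.59 in WT post and 11.5, 11.7 and 11.7 in TCF-1 cKO post. The deleted gene was thus lower in the library labelled WT post replicate 3 than in every TCF-1 cKO post library, and Tcf7 did not pass the test at either stage (edgeR adjusted p = 0.223 and 0.308). The library labelled TCF-1 cKO post replicate 2 has a source label that names CD4 T cells, but held 534 normalized CPM of Cd8a and 1.75 of Cd4. In all 6 pre-transplant libraries, the summed B cell markers stood above the summed CD8 T cell markers although the label is sorted CD8 T cells. Ighm held the largest part of the B cell sum in each, and Pax5 lay below Cd8a in each WT pre library. The 6 B cell markers summed to 9673 to 14220 normalized CPM in WT pre and 4692 to 10190 in TCF-1 cKO pre, against 553 to 928 in WT post and 287 to 458 in TCF-1 cKO post. The 7 CD8 T cell markers (Cd8a, Cd8b1, Cd3e, Cd3d, Cd3g, Trac and Trbc2) summed to 1538 to 1798 in WT pre, 428 to 709 in TCF-1 cKO pre, 10020 to 13050 in WT post and 9887 to 11090 in TCF-1 cKO post. None of these markers was at 0 in all libraries of a group. Cd4 was at 122.5, 96.7 and 97.4 normalized CPM in WT pre and 26.9, 27.8 and 52.5 in TCF-1 cKO pre. Cd8a there was at 172, 96.6 and 172 in WT and 31.1, 34.3 and 33.3 in TCF-1 cKO. At day 7 against pre-transplant, Cd4 had a log2 fold change of -4.895 in WT (edgeR adjusted p = 0.00233). In TCF-1 cKO it was -2.91 (adjusted p = 0.00559).

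The 4 S100 genes lie on the plus strand of chromosome 3 of GRCm38. S100a4 (chr3:90603771-90606045) is near S100a6 (chr3:90612882-90624181), and S100a11 (chr3:93520488-93526287) is near S100a10 (chr3:93555080-93564643). Lgals1 (chr15:78926725-78930465), Lgals3 (chr14:47367751-47386160), Anxa2 (chr9:69453620-69491795), Vim (chr2:13573927-13582826) and Crip1 (chr12:113146316-113153879) are on the plus strand of other chromosomes, and Anxa1 (chr19:20373428-20390944) is on the minus strand. Of the 31-base words in the S100a4 transcripts, 49.2% also occurred in transcripts of Gm42674, and 48.9% of those of S100a11 occurred in transcripts of 6 other genes, mainly Gm12854, so the estimates of this pair depend on how reads were shared out. Each leading other gene received at most 15 estimated counts in any library, against at least 70 for S100a4 and 577 for S100a11. The other 8 genes shared 0.424% or less.

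RefSeq promoters of GRCm38.p6 were found for 8 of the 10 genes, and promoters of Lgals1 and S100a10 were not analysed here. The 250 bases before the start are shown for S100a4 (chr3:90603520-90603769, plus strand) and S100a11 (chr3:93520246-93520495, plus strand), S100 genes of the same chromosome with different values at day 7, and for Anxa2 (chr9:69453433-69453682, plus strand) and Anxa1 (chr19:20390672-20390921, minus strand), the annexin that rose in both genotypes and the one that did not in WT. Sequences read 5′ to 3′ toward the gene, and capitals mark 4 motifs searched on both strands: CTTTGA (the TCF/LEF core), TGANTCA (AP-1, which reads the same on both strands), GGGCGG (the GC box) and TATAAA (the TATA box).
S100a4: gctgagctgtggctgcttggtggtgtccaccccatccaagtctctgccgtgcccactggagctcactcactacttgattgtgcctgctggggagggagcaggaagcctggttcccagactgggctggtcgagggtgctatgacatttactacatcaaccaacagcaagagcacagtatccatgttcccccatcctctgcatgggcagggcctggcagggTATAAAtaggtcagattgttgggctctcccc
S100a11: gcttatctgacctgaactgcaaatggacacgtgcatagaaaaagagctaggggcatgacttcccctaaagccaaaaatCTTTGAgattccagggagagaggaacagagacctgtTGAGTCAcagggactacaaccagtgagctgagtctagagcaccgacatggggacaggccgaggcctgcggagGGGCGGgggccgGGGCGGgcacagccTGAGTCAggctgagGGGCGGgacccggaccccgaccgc
Anxa2: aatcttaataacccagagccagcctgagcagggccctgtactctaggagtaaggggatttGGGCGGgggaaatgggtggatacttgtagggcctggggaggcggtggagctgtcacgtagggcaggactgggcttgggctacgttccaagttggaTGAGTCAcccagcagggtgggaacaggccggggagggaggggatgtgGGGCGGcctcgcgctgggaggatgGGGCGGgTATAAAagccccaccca
Anxa1: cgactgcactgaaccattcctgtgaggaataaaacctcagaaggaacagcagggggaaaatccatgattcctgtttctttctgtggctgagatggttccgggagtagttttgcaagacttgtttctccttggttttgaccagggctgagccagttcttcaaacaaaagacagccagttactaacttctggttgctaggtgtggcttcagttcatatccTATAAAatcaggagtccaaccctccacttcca
CTTTGA was present in 13.8% of 32851 promoters of this length and in 1 of the 8, S100a11, 172 to 167 bases before the start. TGANTCA was present in 6.75% of all promoters and in 2 of the 8, Anxa2 and S100a11. TATAAA was present in 12.4% of all promoters and in 4 of the 8, Anxa1, Anxa2, S100a4 and Vim. GGGCGG was present in 32.7% of all promoters and in 4 of the 8, Anxa2, Crip1, Lgals3 and S100a11. These are matches of letters, not sites shown to be bound.

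Levels of different genes were compared in TPM, the deposited unit that corrects for transcript length and depth. The 10 genes together held 0.323%, 0.342% and 0.300% of all TPM in the WT pre libraries and 0.278%, 0.293% and 0.445% in the TCF-1 cKO pre libraries. At day 7 they held 3.92%, 4.18% and 4.84% in WT and 4.57%, 4.55% and 4.28% in TCF-1 cKO. The genotypes overlapped at both stages, and every post-transplant library was above every pre-transplant library.

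**Figure D1:**
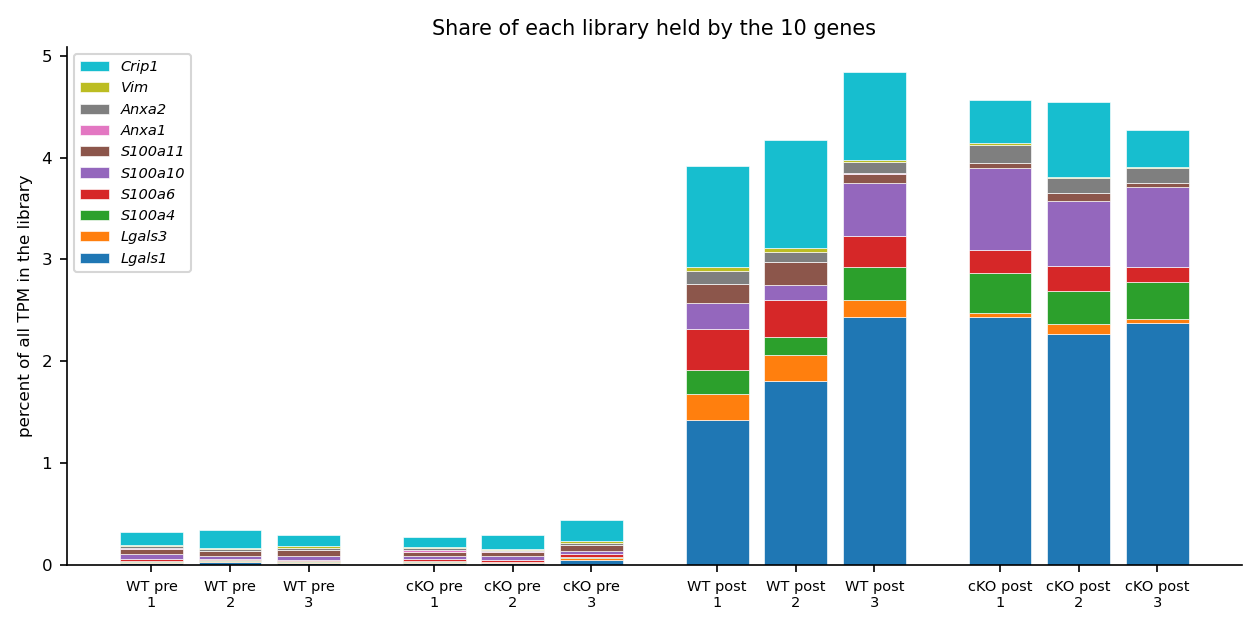
Share of all TPM held by each of the 10 genes (stacked bars, in percent, axis from 0) in each of the 12 libraries, 3 a group. Lgals1 made up 36.4% to 55.7% of the 10-gene total in the post-transplant libraries and 5.68% to 11.95% in the pre-transplant libraries.

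Crip1 led the pre-transplant order, at a mean of 1387 ± 316 TPM (SD, n = 3) in WT and 1476 ± 554 in TCF-1 cKO, with no overlap with the next gene, S100a11. In WT pre, S100a11 (505 ± 48.00), S100a10 (359 ± 138) and Lgals1 (238 ± 76.2) followed, and then Anxa2 (167 ± 22.1), S100a6 (149 ± 26.5) and Vim (137 ± 5.53), each with a range that overlapped the next. S100a4 (108 ± 16.4), Lgals3 (94.4 ± 27.97) and Anxa1 (70.1 ± 26.1) were lowest, and Vim did not overlap S100a4. In TCF-1 cKO pre the order below Crip1 ran S100a11, Lgals1, S100a10, S100a6, Anxa2, Vim, Lgals3, S100a4 and Anxa1, and every neighbouring pair in it overlapped.

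At day 7 Lgals1 had the third highest mean TPM of all genes in both genotypes, at 18900 ± 5108 in WT and 23610 ± 846 in TCF-1 cKO. In WT post it was followed by Crip1 (9770 ± 1006), which was clear of both neighbours. S100a6 (3562 ± 503), S100a10 (3101 ± 1901), S100a4 (2467 ± 769), Lgals3 (2225 ± 519) and S100a11 (1662 ± 646) each overlapped the next in the order, down to Anxa2 (1145 ± 130.0), which did not overlap Vim below it. In TCF-1 cKO post S100a10 came next after Lgals1, at 7407 ± 914 TPM, and overlapped Crip1 (5096 ± 2007). Lgals3 (595 ± 335) and S100a11 (522 ± 212) stood there below Anxa2 (1570 ± 179). Vim and Anxa1 were the lowest pair in both groups, with Anxa1 at 11.5 ± 9.14 TPM in WT post and 41.6 ± 5.93 in TCF-1 cKO post.

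The stage comparison asks how each gene differed between donor cells before transplant and alloactivated cells at day 7 within a genotype. At day 7, 9 of the 10 genes were higher than before transplant in WT and 10 of 10 in TCF-1 cKO, by edgeR's quasi-likelihood test at a Benjamini-Hochberg FDR of 0.1. Of all genes tested, 9.7% were called higher in WT and 19.7% in TCF-1 cKO. The 10 genes were chosen with earlier results of these data known, which limits what their counts can show against these shares. The median log2 fold change of the 10 genes was 4.12 in WT and 4.64 in TCF-1 cKO, against -0.30 and -0.29 over all genes tested. The summed CD8 T cell and B cell markers moved with stage in opposite directions. Summed erythroid markers ran from 3829 to 12820 normalized CPM in WT pre and 2526 to 18470 in TCF-1 cKO pre, against 285 to 2374 in WT post and 276 to 696 in TCF-1 cKO post. Summed monocyte and macrophage markers ran from 1979 to 3763 and 1071 to 1955 before transplant, and from 632 to 1256 and 390.0 to 582 at day 7. Both sums were lower in every post-transplant library than in every pre-transplant library of its genotype, and the part of these cells in the stage differences was not tested. In bulk samples fewer cells of a type and less RNA per cell cannot be told apart. Fold changes were fitted on the 6 libraries of a comparison and differ somewhat from ratios of the means printed here.

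**Figure D2:**
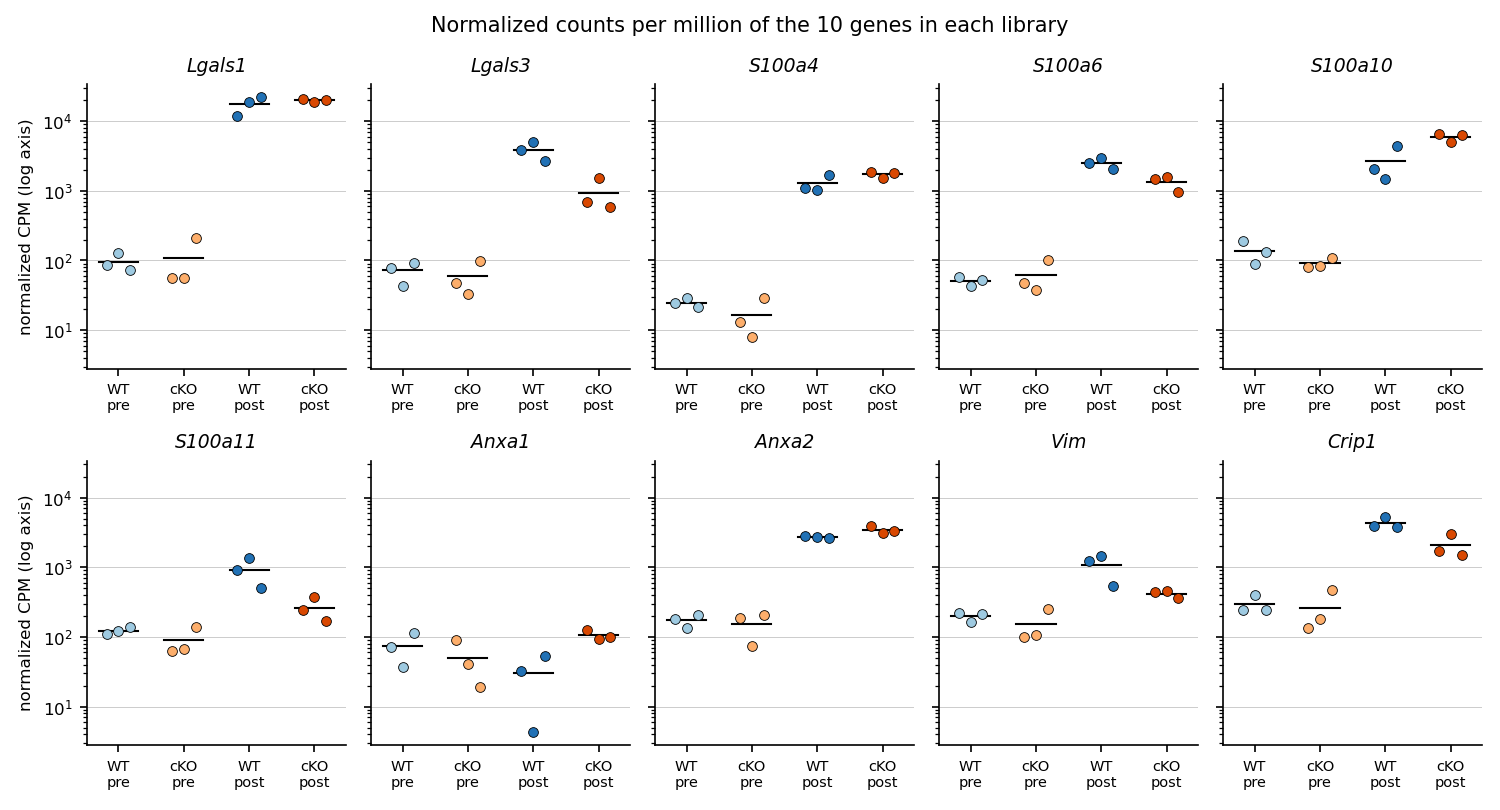
Normalized CPM (log axis) of each gene in each library, with 3 points a group and a line at the group mean. Every gene except Anxa1 was higher in all post-transplant libraries than in all pre-transplant libraries of its genotype, and Anxa1 was so in TCF-1 cKO but not in WT.

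Lgals1, which encodes galectin-1, a lectin known to dampen T cell responses, changed most of the 10 genes in both genotypes. It was at 86.7, 129 and 72.9 normalized CPM in WT pre and at 11750, 18630 and 21890 in WT post. In TCF-1 cKO it was at 56.6, 55.5 and 213 before and at 20430, 18910 and 20290 after transplant. The stages did not overlap, and TCF-1 cKO pre replicate 3 was the highest pre-transplant library. The log2 fold change was 7.49 (SE 0.54, edgeR adjusted p = 0.000319) in WT and 7.96 (SE 0.75, edgeR adjusted p = 0.000149) in TCF-1 cKO. By size it ranked 26 from the top among 16790 genes in WT and 21 among 18535 in TCF-1 cKO.

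Lgals3 encodes galectin-3, a lectin with a self-associating tail. Its levels were 79.2, 43.2 and 93.3 normalized CPM in WT pre and 3912, 4962 and 2716 in WT post. In TCF-1 cKO they were 47.4, 32.7 and 98.3 before and 689, 1510 and 588 after transplant. All post libraries were above all pre libraries, those of WT by more. Its log2 fold change was 5.76 (SE 0.56, edgeR adjusted p = 0.000565) in WT and 4.39 (SE 0.60, edgeR adjusted p = 0.000717) in TCF-1 cKO.

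S100a4 encodes a binding partner of non-muscle myosin. It was at 24.4, 28.8 and 21.3 normalized CPM in WT pre and 1107, 1038 and 1709 in WT post. The TCF-1 cKO libraries were at 12.98, 8.05 and 28.7 before and 1866, 1541 and 1794 after transplant. The stages were far apart in both genotypes. edgeR gave a log2 fold change of 5.68 (SE 0.52, edgeR adjusted p = 0.000525) in WT and 7.15 (SE 0.63, edgeR adjusted p = 0.000119) in TCF-1 cKO.

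S100a6, the gene of calcyclin, was at 58.9, 43.3 and 52.2 normalized CPM in WT pre and 2508, 2996 and 2031 in WT post. In TCF-1 cKO it was at 47.3, 37.3 and 102 before and 1484, 1595 and 964 after transplant. TCF-1 cKO pre replicate 3 was again the highest pre library, and no stage overlapped. The log2 fold change was 5.62 (SE 0.50, edgeR adjusted p = 0.000525) in WT and 4.88 (SE 0.54, edgeR adjusted p = 0.000251) in TCF-1 cKO.

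S100a10, the S100 protein that does not bind calcium and pairs with annexin A2, was at 188, 89.1 and 133 normalized CPM in WT pre and 2047, 1461 and 4437 in WT post. The TCF-1 cKO libraries were at 80.8, 83.04 and 109.6 before and 6441, 5041 and 6400 after transplant. Among the WT post libraries replicate 3 was the highest and nearest to TCF-1 cKO post. Its log2 fold change was 4.27 (SE 0.58, edgeR adjusted p = 0.00213) in WT and 6.49 (SE 0.43, edgeR adjusted p = 0.000105) in TCF-1 cKO.

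Its partner Anxa2 was at 180.0, 136 and 207 normalized CPM in WT pre and 2812, 2743 and 2672 in WT post. In TCF-1 cKO it was at 187, 73.7 and 204 before and 3926, 3087 and 3308 after transplant. The WT post libraries lay close together, and both stages were apart in both genotypes. edgeR gave a log2 fold change of 3.98 (SE 0.45, edgeR adjusted p = 0.000937) in WT and 4.93 (SE 0.52, edgeR adjusted p = 0.000196) in TCF-1 cKO. The TPM of S100a10 over that of Anxa2 within a library was 2.06, 1.48 and 4.51 in WT post and 4.52, 4.39 and 5.27 in TCF-1 cKO post, groups that overlapped through WT post replicate 3.

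S100a11, which encodes the partner of annexin A1, was at 111, 122 and 137 normalized CPM in WT pre and 906, 1350 and 510.5 in WT post. The TCF-1 cKO libraries were at 62.2, 66.4 and 139 before and 243, 377 and 170.4 after transplant. The stages did not overlap, but TCF-1 cKO post replicate 3 was close to the highest pre library. The log2 fold change was 2.91 (SE 0.52, edgeR adjusted p = 0.00588) in WT and 2.004 (SE 0.47, edgeR adjusted p = 0.012) in TCF-1 cKO.

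Anxa1, which encodes a ligand of formyl peptide receptors, was the exception. It was at 72.5, 37.6 and 113 normalized CPM in WT pre and 33.05, 4.32 and 52.6 in WT post, and these groups overlapped. In TCF-1 cKO it was at 91.97, 40.9 and 18.97 before and 126, 93.4 and 101 after transplant, without overlap. Its log2 fold change was -1.31 (SE 0.80, edgeR adjusted p = 0.325) in WT and 1.57 (SE 0.54, edgeR adjusted p = 0.0557) in TCF-1 cKO. The difference between these values did not pass the test (interaction 2.63, SE 1.03, edgeR adjusted p = 0.265). The estimated transcripts of Anxa1 also differed in their shares. The leading one of 8, ENSMUST00000025561, held 13.4% to 77.5% of its TPM in WT pre and 27.5% to 53.5% in TCF-1 cKO pre. After transplant it held 82.7% to 99.9% in WT and 89.4% to 98.7% in TCF-1 cKO. Anxa1 was not alone in this. The leading transcript of Vim held 39.8% to 71.4% in WT pre and 41.8% to 68.8% in TCF-1 cKO pre. It held 64.96% to 98.4% in WT post and 87.1% to 97.8% in TCF-1 cKO post. That of S100a6 held 28.7% to 43.6% in WT pre and 48.1% to 55.5% in WT post. In TCF-1 cKO the stages overlapped in the share of this S100a6 transcript, at 34.45% to 56.8% before and 52.6% to 54.5% after transplant.

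Vim was at 218, 166 and 215 normalized CPM in WT pre and 1234, 1473 and 547 in WT post. The TCF-1 cKO libraries were at 98.9, 108 and 253 before and 442, 459 and 359 after transplant. WT post replicate 3 was the lowest WT post library. The log2 fold changes of 2.46 (SE 0.51, edgeR adjusted p = 0.0122) in WT and 1.90 (SE 0.46, edgeR adjusted p = 0.013) in TCF-1 cKO were the smallest among the genes called in both genotypes.

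Crip1 was at 241, 397 and 241 normalized CPM in WT pre and 3892, 5310 and 3803 in WT post. In TCF-1 cKO it was at 137, 183 and 469.7 before and 1722, 2980 and 1491 after transplant. The stages did not overlap in either genotype, and TCF-1 cKO pre replicate 3 was the highest pre library. edgeR gave a log2 fold change of 3.89 (SE 0.47, edgeR adjusted p = 0.00118) in WT and 3.40 (SE 0.57, edgeR adjusted p = 0.0022) in TCF-1 cKO.

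Leaving out any single library left 9 of the 10 genes called in WT and 9 or 10 in TCF-1 cKO. With library totals in place of TMM factors 7 were called higher in TCF-1 cKO, where 1660 of all 18535 genes tested were called higher. S100a11 (0.50, edgeR adjusted p = 0.304), Vim (0.40, adjusted p = 0.37) and Anxa1 (-0.13, adjusted p = 0.849) did not pass. The call of Anxa1 in TCF-1 cKO was also lost with the GC and length offset (0.96, edgeR adjusted p = 0.101) and in 1 fit over all 12 libraries (1.58, adjusted p = 0.159). In WT library totals called it lower (-2.09, edgeR adjusted p = 0.0975). As an alternative added after seeing the marker levels, each library was scaled to its summed counts of the 7 CD8 T cell markers, which moved the median of all genes to -3.07 in WT and -5.13 in TCF-1 cKO. On that scale 167 of all 16790 genes tested were called higher in WT and 13123 lower. In TCF-1 cKO 82 of 18535 were called higher and 17604 lower. Of the 10 genes, 7 were called higher in WT. The log2 fold change was 4.70 for Lgals1, 3.04 for Lgals3, 2.88 for S100a4 and 2.87 for S100a6. It was 1.43 for S100a10, 1.23 for Anxa2 and 1.13 for Crip1. Anxa1 was called lower (-4.13), and S100a11 (0.20, edgeR adjusted p = 0.733) and Vim (-0.26, adjusted p = 0.671) did not pass. In TCF-1 cKO, Lgals1 (3.35), S100a4 (2.48) and S100a10 (1.69) were called higher and S100a11 (-2.73), Anxa1 (-3.42), Vim (-2.80) and Crip1 (-1.27) lower, while Lgals3 (-0.30), S100a6 (0.17) and Anxa2 (0.17) did not pass. Per unit of RNA of these 7 markers, Lgals1, S100a4 and S100a10 were therefore called higher at day 7 in both genotypes. The direction turned for Vim in WT and for Lgals3, S100a11, Anxa1, Vim and Crip1 in TCF-1 cKO. The Cd3 and T cell receptor genes among the markers do not separate CD8 from CD4 T cells, and Cd4 fell between stages. The scale is thus not one of CD8 T cells alone.

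**Figure D3:**
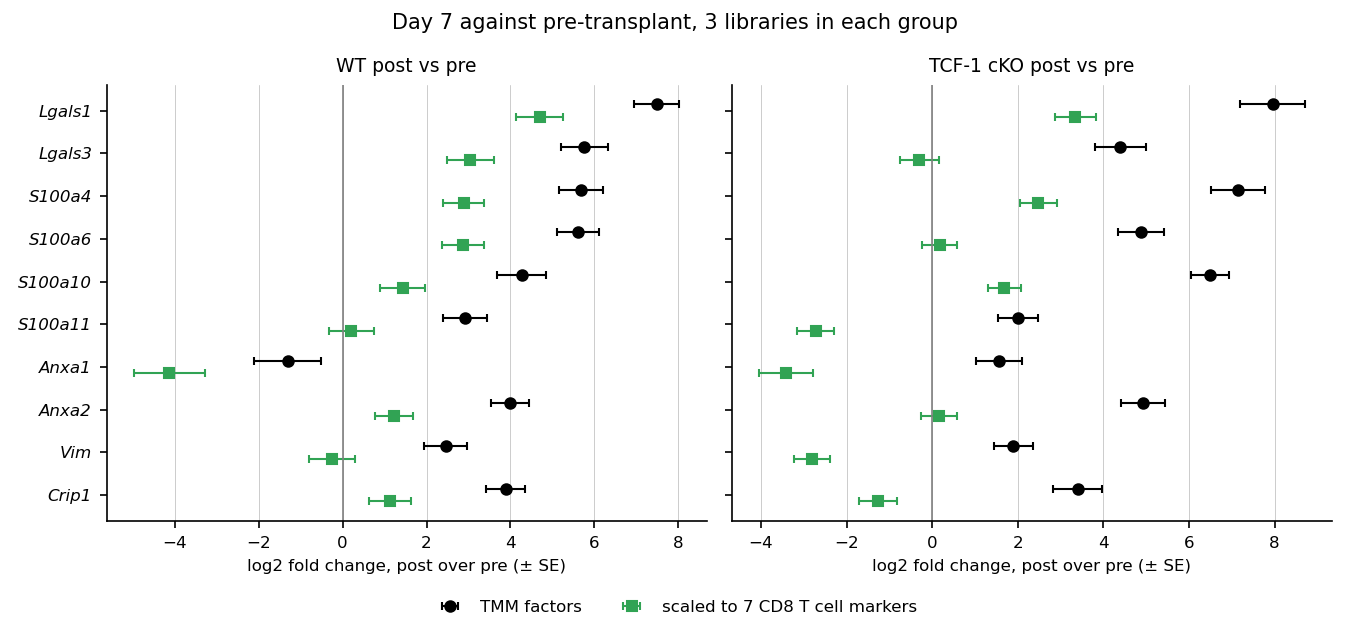
Log2 fold change (post over pre, ± SE from the edgeR fit, 3 libraries a group) of each gene in WT and TCF-1 cKO, with TMM factors and scaled to the 7 CD8 T cell markers. Lgals1, S100a4 and S100a10 lie above 0 on both scales in both genotypes, and the marker scale shifts all genes down, by more in TCF-1 cKO.

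The genotype comparison asks what differed with the loss of TCF-1 at each stage. Before transplant, edgeR called 0 of the 10 genes, with 0 at an unadjusted p under 0.05, and limma-voom and DESeq2 also called 0. Of all genes tested, 0.0373% were called. Log2 fold changes of TCF-1 cKO over WT lay between -0.43 for S100a4 and 0.43 for S100a6, with SEs of 0.42 to 0.59, and the groups overlapped for each of the 10, where 30.3% of all genes did not overlap. Scaled to the CD8 T cell markers, which were lower in TCF-1 cKO pre, 8 of the 10 genes were called higher. On that scale 7667 of all 18757 genes tested were called higher, and the median of all genes moved from 0.0474 to 1.53.

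At day 7, 3 of the 10 genes were called lower in TCF-1 cKO than in WT and 0 higher, where 15.4% of all genes tested were called lower and 2.51% higher. The 3 were Lgals3, S100a11 and Vim. Leaving out any 1 of the TCF-1 cKO post libraries or WT post replicate 1 or 2 left 0 of the 10 genes called, with 0 to 2 genes called in all. Without the library labelled WT post replicate 3, the lowest in Tcf7, 7 of the 10 genes and 5299 genes in all were called, with Lgals3 at -2.42 (edgeR adjusted p = 0.00903), S100a11 at -2.27 (adjusted p = 0.00916) and Vim at -1.87 (adjusted p = 0.00572). Over these 6 refits with 1 library left out, the log2 fold change ran from -2.76 to -1.88 for Lgals3, -2.33 to -1.51 for S100a11 and -1.87 to -1.20 for Vim.

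Lgals3 had the largest difference of the called genes, with means of 3863 ± 1124 normalized CPM (SD, n = 3) in WT post and 929 ± 506 in TCF-1 cKO post. Its log2 fold change was -2.12 (SE 0.52, edgeR adjusted p = 0.0459), a 4.36-fold lower level. S100a11 averaged 922 ± 419.8 and 264 ± 105, a log2 fold change of -1.89 (SE 0.55, edgeR adjusted p = 0.0637). In these genes and in Vim the groups did not overlap, and WT post replicate 3 was the WT library nearest to TCF-1 cKO. Vim averaged 1085 ± 481 and 420.0 ± 53.3, a log2 fold change of -1.47 (SE 0.49, edgeR adjusted p = 0.0947). The call of Vim was lost by limma-voom (adjusted p = 0.116), in 1 edgeR fit over all 12 libraries (0.152), with library totals (0.219), with scaling to the CD8 T cell markers (0.109) and with the GC and length offset (0.372). The call of S100a11 was lost with library totals (edgeR adjusted p = 0.125). Beside Lgals3 and S100a11, limma-voom called S100a10 (adjusted p = 0.0814) and Crip1 (0.0907).

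Crip1 and S100a6 also lay lower in TCF-1 cKO without overlap, but did not pass at the FDR of 0.1. Crip1 averaged 4335 ± 845 in WT post and 2064 ± 801 in TCF-1 cKO post, a log2 fold change of -1.13 (SE 0.41, edgeR adjusted p = 0.119). S100a6 averaged 2512 ± 483 and 1348 ± 336, a log2 fold change of -0.98 (SE 0.39, edgeR adjusted p = 0.148). S100a10, Anxa1 and Anxa2 were without overlap in the other direction and did not pass either. S100a10 averaged 2649 ± 1576 and 5961 ± 797, a log2 fold change of 1.15 (SE 0.41, edgeR adjusted p = 0.114). For Anxa1 the means were 30.00 ± 24.3 and 107 ± 16.9, a log2 fold change of 1.82 (SE 0.75, edgeR adjusted p = 0.159). The groups did not overlap for 5 of the 10 genes in the lower direction, against 19.7% of all genes, and for 3 in the higher direction, against 19.1%. The two-sided exact permutation test over the 20 splits of 6 libraries gave p = 0.1, the smallest it can give, for each of these 8 genes.

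Lgals1, Anxa2 and S100a4 had the smallest differences between genotypes at day 7 in the fit with TMM factors. The log2 fold change was 0.14 (SE 0.29, edgeR adjusted p = 0.779) for Lgals1. It was 0.39 (SE 0.34, edgeR adjusted p = 0.484) for S100a4, and in both genes the groups overlapped. For Anxa2 it was 0.25 (SE 0.31, edgeR adjusted p = 0.625). With the GC and length offset the smallest were those of Crip1 (0.21), Vim (-0.50) and S100a4 (-0.56), with Lgals1 at 0.78 and Anxa2 at 0.85.

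Ratios within a library do not depend on its scaling, and these pairs were picked with their values known. The genes of a pair differ in GC content, which the genotype difference at day 7 followed, as given below. It was 49.5% for S100a11 and 51.4% for S100a10, 57.2% for Lgals3 and 55.2% for Lgals1, and 52.5% for S100a6 and 49.2% for S100a4. The part of GC content in these ratios was not tested. The TPM of S100a11 over S100a10 was 0.712, 1.46 and 0.181 in WT post and 0.0602, 0.118 and 0.0423 in TCF-1 cKO post, without overlap. Before transplant it was 0.937, 2.05 and 1.67 in WT and 1.24, 1.26 and 1.90 in TCF-1 cKO. Before transplant the genotypes overlapped in this ratio. Lgals3 over Lgals1 was 0.174, 0.142 and 0.0667 in WT post and 0.0180, 0.0432 and 0.0155 in TCF-1 cKO post. Before transplant Lgals3 over Lgals1 was 0.478, 0.195 and 0.673 in WT and 0.428, 0.317 and 0.262 in TCF-1 cKO, and the genotypes overlapped. S100a6 over S100a4 was 1.69, 2.10 and 0.917 in WT post and 0.595, 0.790 and 0.409 in TCF-1 cKO post. In this pair the pre-transplant genotypes did not overlap either, but in the other direction, at 1.59, 0.974 and 1.69 in WT and 2.46, 3.58 and 2.76 in TCF-1 cKO. At day 7, in each of these 3 pairs the TCF-1 cKO post libraries lay below all WT post libraries, and WT post replicate 3 was the nearest to them.

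The genotype difference at day 7 followed the GC content of the genes over the whole table (Spearman's rho of -0.57 over 16026 genes, which are not independent), so each gene was set beside genes whose GC content lay within 1 percentage point. Lgals3, at 57.2% GC, had a log2 fold change of -2.12 against a median of -2.30 for 1208 genes of like GC content. Crip1, at 58.6%, had -1.13 against -2.48, and Lgals1, at 55.2%, had 0.14 against -1.57. S100a11, at 49.5%, was at -1.89 against 0.21 for 1905 genes, and S100a10, at 51.4%, at 1.15 against -0.22. S100a11 thus lay below genes of like GC content, and Lgals1, S100a10 and Crip1 lay above them, while Lgals3 lay near them. Vim had -1.47 against -0.94, S100a6 -0.98 against -0.54, Anxa2 0.25 against -0.75, S100a4 0.39 against 0.25 and Anxa1 1.82 against 0.79. Anxa2 and Anxa1 thus also lay above genes of like GC content, and Vim and S100a6 below. With an offset for GC content and length in the fit, 1 of the 10 genes was called, S100a11 (-2.98, SE 0.63, edgeR adjusted p = 0.0925), of 642 genes in all. Lgals3 was at -0.59 (SE 0.38, edgeR adjusted p = 0.413) and Vim at -0.50 (SE 0.30, edgeR adjusted p = 0.372) in that fit. S100a10 was at 0.82 (SE 0.33, edgeR adjusted p = 0.203) there and was not called.

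**Figure D4:**
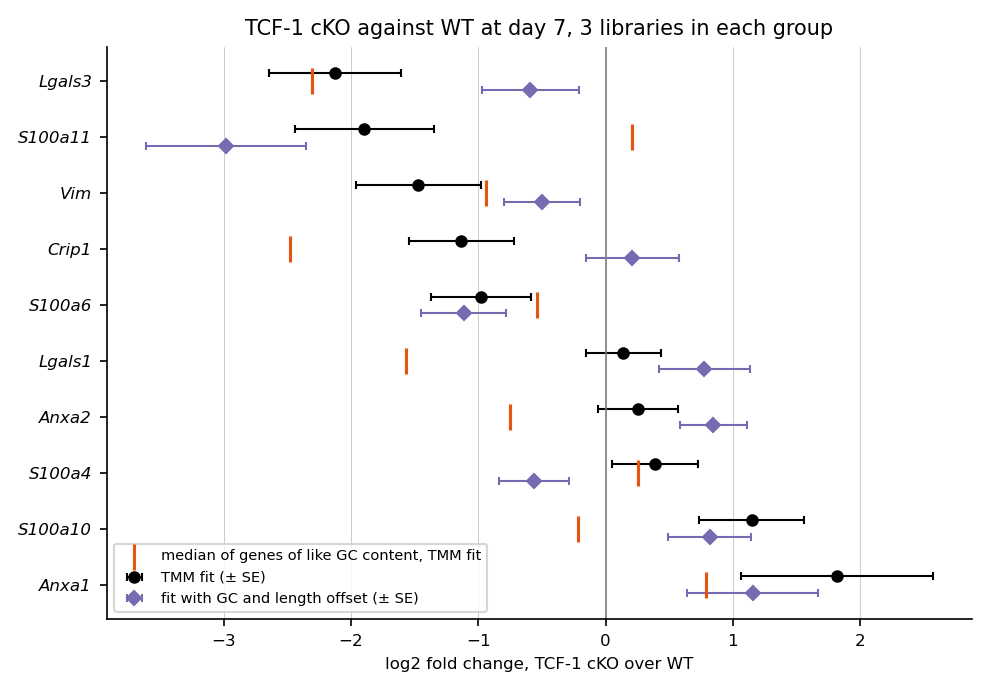
Log2 fold change of TCF-1 cKO over WT at day 7 (± SE, 3 libraries a group) of each gene in the fit with TMM factors and in the fit with an offset for GC content and length, beside the median of genes of like GC content in the first fit. S100a11 lies below 0 in both fits while genes of like GC content have a median of 0.21, and Lgals3 lies near the median of its GC neighbours.

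Markers of other cells also differed between the day 7 groups. The sum of the 6 B cell markers was lower in TCF-1 cKO post, as given above, but Ms4a1 and Pax5 overlapped between the groups and 0 of the 6 passed the test. The 9 monocyte and macrophage markers summed to 632 to 1256 normalized CPM in WT post and 390.0 to 582 in TCF-1 cKO post, without overlap. Cst3 held the largest part of that sum in 5 of the 6 libraries, at 618, 1116 and 537 in WT post and 228, 476 and 165 in TCF-1 cKO post, which did not pass the test. Of the 9, Lyz2, a lysozyme gene of myeloid cells, was called, and in the other direction though the groups overlapped, at 14.7, 30.2 and 17.6 in WT post and 86.8, 25.5 and 187 in TCF-1 cKO post, a log2 fold change of 2.15 (SE 0.73, edgeR adjusted p = 0.0964). The 8 neutrophil markers summed to 66.05 to 136 in WT post and 121 to 461 in TCF-1 cKO post, which overlapped. S100a8 held the largest part of that sum in each library and did not pass. Of the 8, S100a9 was called higher (2.49, edgeR adjusted p = 0.0627) and Elane lower (-3.28, adjusted p = 0.0639), and 6 did not pass. No marker of these lists was at 0 in all libraries of a group. Their part in the differences of the 10 genes was not tested. The sum of the 7 CD8 T cell markers overlapped between the groups, but Cd3e, Cd8b1 and Cd3g each did not. Cd3e was called lower in TCF-1 cKO post (log2 fold change -2.812, edgeR adjusted p = 0.0448). Cd8b1 lay lower and Cd3g higher there, and neither passed the test. The scale thus rests on a sum whose members differed between genotypes in both directions. Scaled to these 7 markers, Lgals3 (-2.06, edgeR adjusted p = 0.0565), S100a11 (-1.83, adjusted p = 0.0703) and S100a10 (1.31, adjusted p = 0.0764) were called.

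The test of whether the genotype difference changed between stages called 0 of the 10 genes by edgeR, with 2 at an unadjusted p under 0.05, where 0.00465% of all genes were called. These were Anxa1 and S100a10 (interaction 1.95, SE 0.70, edgeR adjusted p = 0.249). limma-voom called 0 and DESeq2 called 1, S100a10 (adjusted p = 0.0884). Without WT post replicate 3, edgeR called S100a10 (2.61, adjusted p = 0.0514) and Anxa1 (3.42, adjusted p = 0.079), and 2093 genes in all.

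The other genes of these families, 34 with values, had calls in both directions. At day 7 against pre-transplant, 3 of 23 tested were called higher and 3 lower in WT, and 7 of 23 higher and 3 lower in TCF-1 cKO. Their median log2 fold changes were 0.58 and 0.73. Of all 16790 genes tested in WT, 1628 were called higher and 1734 lower. In TCF-1 cKO it was 3660 and 3114 of 18535. S100a13, another S100 gene, was at 28.7, 45.1 and 23.5 normalized CPM in WT pre and 352, 537 and 680.4 in WT post, a log2 fold change of 3.999 (SE 0.54, edgeR adjusted p = 0.00206), and changed by 5.68 (SE 0.54, edgeR adjusted p = 0.000155) in TCF-1 cKO. Csrp1, a LIM protein gene, rose by 2.09 in WT and 3.17 in TCF-1 cKO, and Anxa6 by 2.77 and 1.78. The stages of Anxa6 overlapped in TCF-1 cKO. S100a1 (2.75), Csrp2 (2.80) and Anxa5 (1.73) rose in TCF-1 cKO and did not pass in WT, and these differences between genotypes did not pass themselves (interaction, edgeR adjusted p = 0.696, 0.824 and 0.756).

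The calprotectin genes S100a8 and S100a9, which neutrophils express, went the other way in WT. S100a9 was at 210.5, 236 and 253 normalized CPM in WT pre and 12.4, 6.86 and 29.00 in WT post, a log2 fold change of -3.88 (SE 0.64, edgeR adjusted p = 0.00424), and S100a8 changed by -2.09 (SE 0.57, edgeR adjusted p = 0.0355). In TCF-1 cKO S100a9 changed by -0.41 (SE 0.55, edgeR adjusted p = 0.617) and S100a8 by 0.15 (SE 0.53, edgeR adjusted p = 0.855). The sum of the 8 neutrophil markers, which include both genes, was 570.3 to 799 in WT pre and 66.05 to 136 in WT post. Anxa4, Anxa7, Anxa11, Lgals8 and Lgals9 did not pass in either genotype.

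Between genotypes at day 7, 2 of 24 family genes were called higher and 5 lower in TCF-1 cKO. Of all genes tested, 2.51% were called higher and 15.4% lower. The part of GC content in the calls of family genes was not tested. Anxa11 was at 73.1, 107 and 20.1 normalized CPM in WT post and 10.01, 5.26 and 6.32 in TCF-1 cKO post (log2 fold change -3.34, edgeR adjusted p = 0.0448). Lgals9, the gene of a galectin that binds the receptor encoded by Havcr2, was at 303, 541 and 184 and 78.9, 74.95 and 44.5 (log2 fold change -2.47, edgeR adjusted p = 0.0448). In these genes and in Crip2 the library labelled WT post replicate 3 was the lowest of WT. Crip2 was at 33.5, 73.2 and 5.45 and 4.35, 4.99 and 4.72 (log2 fold change -3.12, edgeR adjusted p = 0.0597). Anxa6 (-2.10, edgeR adjusted p = 0.0776) was also called lower and S100a9 (2.49, adjusted p = 0.0627) higher. S100a7a was called higher from low levels, 0.0488, 0.0708 and 0.153 normalized CPM in WT post and 1.45, 2.76 and 3.49 in TCF-1 cKO post. Anxa4, Anxa5, Anxa7, Lgals8, S100a8 and S100a13 did not pass.

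Partner genes were 29 genes whose products bind those of the 10 or share their compartment. At day 7, 12 of 28 tested rose and 2 fell in WT, and 10 of 29 rose and 4 fell in TCF-1 cKO. Their median log2 fold changes were 1.01 and 0.69. Of all genes tested, 9.7% rose in WT and 19.7% in TCF-1 cKO. Myl6, a myosin light chain gene, rose by 3.18 (SE 0.48, edgeR adjusted p = 0.00296) in WT and 4.92 (SE 0.56, edgeR adjusted p = 0.000283) in TCF-1 cKO, and Tagln2, an actin-binding protein gene, by 3.04 and 1.33. The stages of Tagln2 overlapped in TCF-1 cKO. In TCF-1 cKO Havcr2 (5.11), the tropomyosin gene Tpm4 (3.73) and the galectin-1 receptor gene Cd7 (2.56) also rose. Fpr1, a formyl peptide receptor gene known in myeloid cells, was at 36.9, 6.69 and 31.5 normalized CPM in WT pre and 0, 0 and 0.153 in WT post. Plaur, the urokinase receptor gene, had a log2 fold change of -6.45 (SE 0.93, edgeR adjusted p = 0.0026) in WT. Ahnak, whose product binds S100A10 and annexin A2, was at 85.8, 51.6 and 62.05 in WT pre and 86.4, 67.7 and 109 in WT post and did not pass in any comparison.

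Of 27 partner genes tested between genotypes at day 7, 11 were called lower and 1 higher in TCF-1 cKO. Of all genes tested, 15.4% were called lower and 2.51% higher. The part of GC content in the calls of these genes was not tested. Itgb7, an integrin gene of gut homing, was at 4161, 9172 and 881 normalized CPM in WT post and 450.0, 225 and 351 in TCF-1 cKO post (log2 fold change -3.94, edgeR adjusted p = 0.0448). Lgals3bp, the gene of a secreted glycoprotein that binds galectin-3, was at 265, 831 and 65.8 and 30.1, 11.7 and 25.8 (log2 fold change -4.25, edgeR adjusted p = 0.0448). Both spread widely over the WT libraries, with replicate 3 nearest to TCF-1 cKO. Spn, the gene of the surface protein CD43, changed by -2.54 (edgeR adjusted p = 0.0448) and Emp3 by -3.02 (adjusted p = 0.0448). Before transplant edgeR called 0 of 29 partner genes and 0 of 25 family genes.

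Likeness to the mean profile of the 10 genes was measured as the root mean square difference between centred log2(normalized CPM + 1) profiles over the 12 libraries. The closest genes outside the group were Ldha (0.240), Pycard (0.304), Psmb3 (0.313), Sdhb (0.320) and Chaf1b (0.353). Ldha, which encodes a lactate dehydrogenase subunit, averaged 647 and 396 normalized CPM in WT pre and TCF-1 cKO pre, and 8734 and 6985 in WT post and TCF-1 cKO post. Within the group Anxa2 was closest to the mean profile (0.341), followed by Crip1 (0.556) and S100a6 (0.606), and Anxa1 (2.51) and Lgals1 (1.85) were farthest.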

How the data were processed

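RNA was sequenced from 12 libraries of mouse CD8 T cells, 3 a group. The authors pseudoaligned reads with Kallisto 0.46.2 and deposited estimated counts and TPM per transcript. The submitters' processing notes also name limma and mm9, and the transcript release is not given in the sources used here. Of 117497 transcripts, 116374 were joined to GENCODE genes (GRCm38), which held 99.5% to 99.7% of a library's counts, and summed per gene, and estimated counts were rounded. Replicates differed by more than sampling noise.

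Genes kept by filterByExpr were tested with edgeR 4.0.16 (R 4.3.3, quasi-likelihood, TMM, Benjamini-Hochberg over all genes tested, FDR 0.1) on the 6 libraries of a comparison, or all 12 for the interaction, after the fit was tested on simulated data. The SE is the size of the log2 fold change over the square root of F. The exact permutation test used log2(normalized CPM + 1). GC content and length were averaged over a gene's transcripts, weighted by TPM, and their offset was a loess curve (span 0.4, degree 2) per library. limma 3.58.1 (voom) and DESeq2 1.42.0 were alternatives.

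The 10 genes and the lists were chosen with earlier results of these data known. Named beside them were the label checks, 10 fixed family genes and Ahnak, up to 4 called family and 4 called partner genes of smallest p per comparison, and the 5 genes of most like profile. Depth was 4520270 to 32657005 estimated counts, at which 3 counts are 0.0922 to 0.667 CPM, a limit that covers counting error only. Scaling to library totals and to CD8 T cell markers was added after the data were seen.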

Additional observations from a re-analysis of the deposited data

How the results depend on the processing

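Over refits of single genes, 771 kept direction and side of the FDR of 0.1, 36 lost the call, 27 gained it and 56 changed sign, and the cause was not tested. Before transplant, Anxa2 (0.00354) changed sign by limma-voom (-0.0705), DESeq2 (-0.0361), its size factors (-0.0361), no filter (-0.28), counts scaled from TPM (-0.0326) and 1 fit over 12 libraries (-0.18). The GC and length offset turned Lgals1 (-0.40), S100a6 (-0.51) and Anxa2 (-0.37) before transplant, S100a4 (-0.56) and Crip1 (0.21) at day 7 and Crip1 (0.58) in the interaction. Library totals turned Lgals3 (0.21), Anxa1 (0.10), Vim (0.0861) and Crip1 (0.25) before transplant and Anxa1 (-0.13) in TCF-1 cKO post against pre. Scaling to the CD8 T cell markers turned Lgals3 (1.28), S100a4 (0.92), S100a10 (1.05), S100a11 (1.10), Anxa1 (1.26), Vim (1.16) and Crip1 (1.34) before transplant, Vim (-0.26) in WT post against pre, Lgals3 (-0.30), S100a11 (-2.73), Anxa1 (-3.42), Vim (-2.80) and Crip1 (-1.27) in TCF-1 cKO post against pre and Lgals1 (-1.35), S100a4 (-0.40) and Anxa2 (-1.06) in the interaction.

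Genes called before transplant (7) numbered 2 by limma-voom, 1423 by DESeq2, 3 with its size factors, 619 with no filter, 3 in 1 fit over 12 libraries, 12 with library totals, 7701 scaled to CD8 T cell markers (8 of the 10) and 2 at an FDR of 0.05. At day 7 (2868) they numbered 4524 by DESeq2 (7 of the 10), 642 with the GC and length offset (1 of the 10) and 1396 at an FDR of 0.05 (1 of the 10), and library totals called 1 of the 10. Scaled to CD8 T cell markers, 13290 genes were called in WT post against pre, 13123 of them lower, and 17686 in TCF-1 cKO post against pre, 17604 of them lower. With library totals 4853 and 12268 were called, 4136 and 10608 of them lower, where TMM factors gave 3362 and 6774, with 1734 and 3114 lower. The interaction (1) gave 1367 by DESeq2 (1 of the 10), 580 with no filter, 2 with the GC and length offset, 5 with library totals and 5342 scaled to CD8 T cell markers (5 of the 10). DESeq2 size factors moved the median of all genes in WT post against pre from -0.30 to -0.10.

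With 1 library left out in turn, genes called ranged from 0 to 2739 before transplant, the most without TCF-1 cKO pre replicate 3, from 0 to 5299 at day 7 (0 to 7 of the 10) and from 0 to 2093 in the interaction (0 to 2 of the 10), the most of both without WT post replicate 3, and from 1579 to 4156 in WT post against pre. Log2 fold changes that crossed 0 ranged, before transplant, from -0.33 to 0.29 for Anxa2, -0.78 to 0.28 for Crip1, -0.69 to 0.58 for Lgals1, -0.75 to 0.13 for Lgals3 and -0.20 to 0.64 for S100a6, and for Lgals1 from -0.17 to 0.22 at day 7 and -0.39 to 1.12 in the interaction. The TCF-1 cKO pre libraries held 4520270 to 9577076 estimated counts, and the part of depth in these counts of calls was not tested.

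Deviations of same-numbered libraries correlated at -0.13 to 0.17, so the replicate numbers were not taken as a pairing. A replicate block called 0 genes before transplant, with Anxa2 (-0.0890) turned, 2038 at day 7 (4 of the 10: Lgals3, S100a10, S100a11 and Crip1), 3097 and 5478 between stages in WT and TCF-1 cKO, and 0 in the interaction. The block with the GC and length offset called 20 genes before transplant, 2 at day 7 (0 of the 10) and 1 in the interaction. It turned Lgals1 (-0.51), S100a6 (-0.43) and Anxa2 (-0.39) before transplant, S100a4 (-0.55) and Crip1 (0.19) at day 7 and Crip1 (0.62) in the interaction.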

Other observations

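Genes of effector state and cell cycle were set beside the 10 genes as values. Gzmb, the gene of granzyme B, was at 22.3, 3.58 and 7.46 normalized CPM in WT pre and 2760, 1562 and 4729 in WT post, and at 11.5, 10.2 and 16.6 in TCF-1 cKO pre and 5330, 5096 and 6948 in TCF-1 cKO post. Its log2 fold change was 8.08 (SE 0.90, edgeR adjusted p = 0.000873) in WT and 9.28 (SE 0.51, edgeR adjusted p = 0.000105) in TCF-1 cKO. Mki67, a gene of cycling cells, was at 129.9, 42.7 and 223 in WT post and 458, 272 and 434 in TCF-1 cKO post, without overlap, and did not pass between genotypes (log2 fold change 1.53, edgeR adjusted p = 0.128).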
